A study of Mus musculus with 21 samples.

Results

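Macrophages that had been in tumour necrosis factor (TNF) for 24 h were compared with untreated macrophages, using 6 of the 21 libraries of a study of TNF and the type 2 cytokines interleukin 4 and interleukin 13 (IL-4 and IL-13). The cells were bone-marrow-derived macrophages, which are grown in culture from bone marrow with the growth factor M-CSF, from wild-type C57BL/6 mice 8 to 10 weeks old. The 3 libraries named TNF_24h received TNF at 10 ng/ml, with no IL-4 or IL-13, and the 3 named Ctrl_0h received no cytokine and were taken at 0 h. The libraries were chosen by these labels. Since the untreated cells were taken at 0 h, an effect of 24 h more in culture cannot be told apart from that of TNF. For 2 further comparisons, TNF_24h was set against TNF_6h (TNF at 10 ng/ml for 6 h), and cells given IL-4, IL-13 and TNF for 24 h (IL_TNF_24h) against cells given IL-4 and IL-13 for 24 h (IL_24h), with 3 libraries each.

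TNF binds 2 receptors, TNFR1 and TNFR2, encoded by Tnfrsf1a and Tnfrsf1b, and the adaptors and kinases they recruit release the NF-kB transcription factors from their IkB inhibitors. NF-kB switches on cytokines, chemokines and adhesion molecules, and also its own brakes, such as the IkB protein encoded by Nfkbia and the ubiquitin-editing enzyme A20 encoded by Tnfaip3. In macrophages TNF is also known to induce small amounts of interferon beta, which acts back on the cells through its receptor and raises interferon-stimulated genes at a later time.

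The 6 libraries held between 28.1 and 38.8 M counts in genes (M, 1e6), within the range of 28.1 to 48.7 M over all 21. One control library stood apart: Ctrl_0h replicate 2 had counts in 27761 genes, against 16996 to 20631 in the other 20 libraries. Its counts differed from those of replicates 1 and 3 by a chi-square of 79.6 and 75.3 per degree of freedom, against 8.23 between replicates 1 and 3 and 26.9 to 98.3 between the TNF_24h libraries. Results are therefore also given without it where it moved the count of a gene list, the call of a named gene or a named change by over 1.5 times. The labels do not say that replicates came from separate cultures or animals, so p values measure the spread between these libraries, which may be technical. The summed level of 10 macrophage markers was 22907 to 27232 CPM in Ctrl_0h and 30424 to 36765 CPM in TNF_24h, and none of the 10 was at 0 in either group. CPM are counts per 1e6 of a library total that was adjusted with the TMM factors of edgeR.

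Of 15581 genes that passed the filter on low counts, 7054 differed between TNF_24h and Ctrl_0h (45.3%), by the quasi-likelihood test of edgeR at a Benjamini-Hochberg adjusted p under 0.05. Of these 3258 were raised in TNF_24h (20.9% of genes tested) and 3796 were lowered (24.4%). At least 2-fold changes numbered 1569 raised and 2101 lowered, and at least 8-fold changes 368 raised and 585 lowered. The 3 libraries of one group lay entirely above or below those of the other for 7597 genes (48.8%). The median log2 fold change over all genes tested was -0.09.

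**Figure D1:**
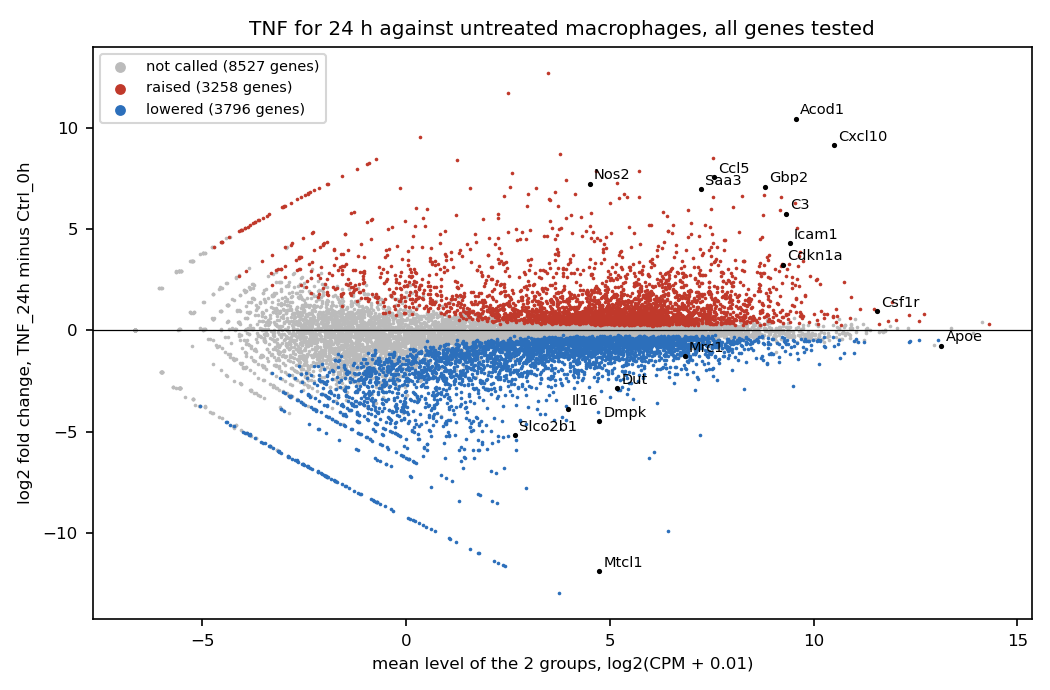
Change against level for all 15581 genes tested. The horizontal axis is the mean CPM of the 2 groups on a log2 scale after adding 0.01, the vertical axis the log2 fold change of TNF_24h over Ctrl_0h, and each point is 1 gene, red where raised (3258), blue where lowered (3796) and grey where not called. Acod1 and Cxcl10 sit far above 0 at high levels, while Mtcl1, at the bottom, is high in 1 control library only.

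The lowered side of this count rested in part on Ctrl_0h replicate 2. Without it 5953 of 15837 genes were called (37.6%), 2947 raised (18.6%) and 3006 lowered (19.0%). The number lowered at least 8-fold went from 585 to 138, and the number raised at least 8-fold from 368 to 488. Of the 3796 lowered genes, 650 were at least 3 times as high in replicate 2 as in each of the other control libraries. In both fits 2651 genes were raised and 2760 were lowered. Mtcl1, which encodes a microtubule-binding protein, shows the effect of that library. It had 0.294, 159 and 1.17 CPM in Ctrl_0h replicates 1, 2 and 3, and 0.0304, 0 and 0 CPM in TNF_24h. TNF_24h held 1 count of it in all. Ctrl_0h over TNF_24h gave a ratio of 4448 (95% counting interval 798 to 175700) with replicate 2 and of 63.3 (10.8 to 2552) without it.

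**Figure D2:**
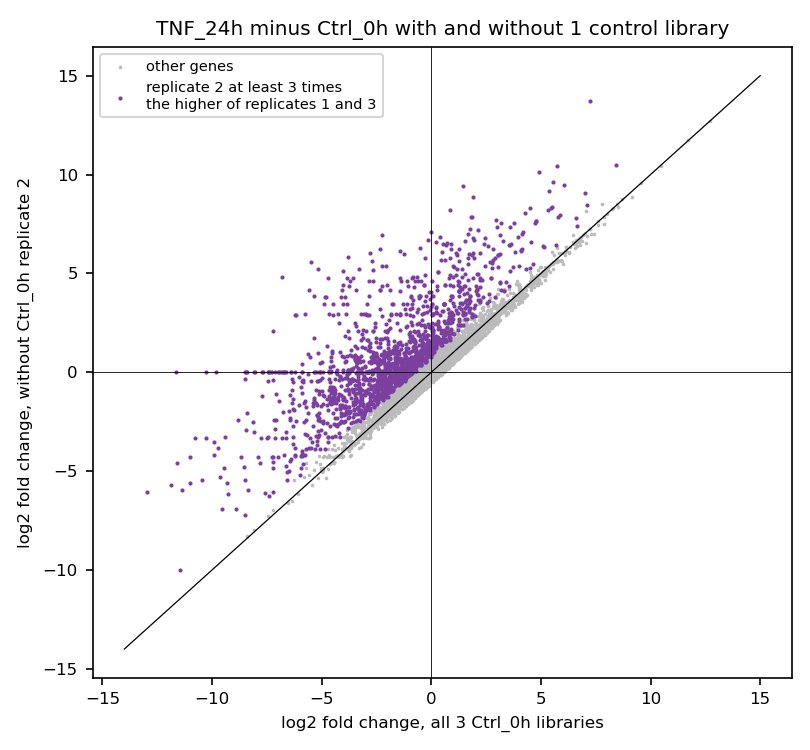
Log2 fold change of TNF_24h over Ctrl_0h for each of 15581 genes with all 3 control libraries (horizontal) and without Ctrl_0h replicate 2 (vertical), with the line of equal values. The 1634 genes in purple, at least 3 times as high in replicate 2 as in the higher of replicates 1 and 3, lie mostly above the line and have a median of -1.90 with that library and 0.35 without it, while the other genes lie along the line.

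The genes that rose most included Acod1, Serpina3f, Serpina3g, Cd69, Apol7c and Vcam1. Acod1 (ENSMUSG00000022126, chr14:103047012-103056573, GRCm38.p6, as for all positions here), which encodes the enzyme that makes itaconate, had 1.04, 1.05 and 1.11 CPM in Ctrl_0h replicates 1 to 3 and 1333, 1656 and 1552 CPM in TNF_24h. Its log2 fold change was 10.47 ± 0.27 (standard error; edgeR adjusted p = 1.14e-15), and the 3 TNF_6h libraries lay between the groups at 541, 556 and 519 CPM. The 3 values of each group lay close together, and none overlapped with another group. Serpina3f (ENSMUSG00000066363, chr12:104214544-104221129), a serine protease inhibitor of the antichymotrypsin family, had no count in any Ctrl_0h library and 10.1, 10.4 and 13.3 CPM in TNF_24h. Against a floor of 3 counts over the untreated group it was at least 366-fold higher. Its neighbour in the same gene cluster, Serpina3g, had 0.107, 0.0338 and 0.392 CPM in Ctrl_0h and 28.1, 33.6 and 29.3 CPM in TNF_24h (log2 fold change 7.41 ± 0.66, edgeR adjusted p = 2.24e-08, and 8.62 without control replicate 3). Members of this family are alike in sequence, so reads can be split between them.

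Cd69, an early activation antigen of leukocytes, had 0.374, 0.406 and 0.522 CPM in Ctrl_0h and 92.2, 115 and 104 CPM in TNF_24h (log2 fold change 7.90 ± 0.47, edgeR adjusted p = 9.85e-11). Apol7c, of the apolipoprotein L family, had 0.0534, 0.203 and 0 CPM in Ctrl_0h and 7.39, 17.2 and 10.4 CPM in TNF_24h, a log2 fold change of 7.09 ± 0.53 (edgeR adjusted p = 2.01e-09). The control libraries without replicate 2 held only 2 counts of it, and the ratio was then 389 (95% counting interval 107.5 to 3217). Vcam1, the adhesion molecule that binds the integrin VLA-4, was at 0, 0.304 and 0.131 CPM in Ctrl_0h and 13.2, 23.3 and 18.01 CPM in TNF_24h (log2 fold change 7.03 ± 0.58, edgeR adjusted p = 9.25e-09). Vcam1 gave 6.38 without control replicate 1 and 8.18 without replicate 2. For all of these genes the lowest TNF_24h library was above the highest Ctrl_0h library, which was a condition of the rule that named them.

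**Figure D3:**
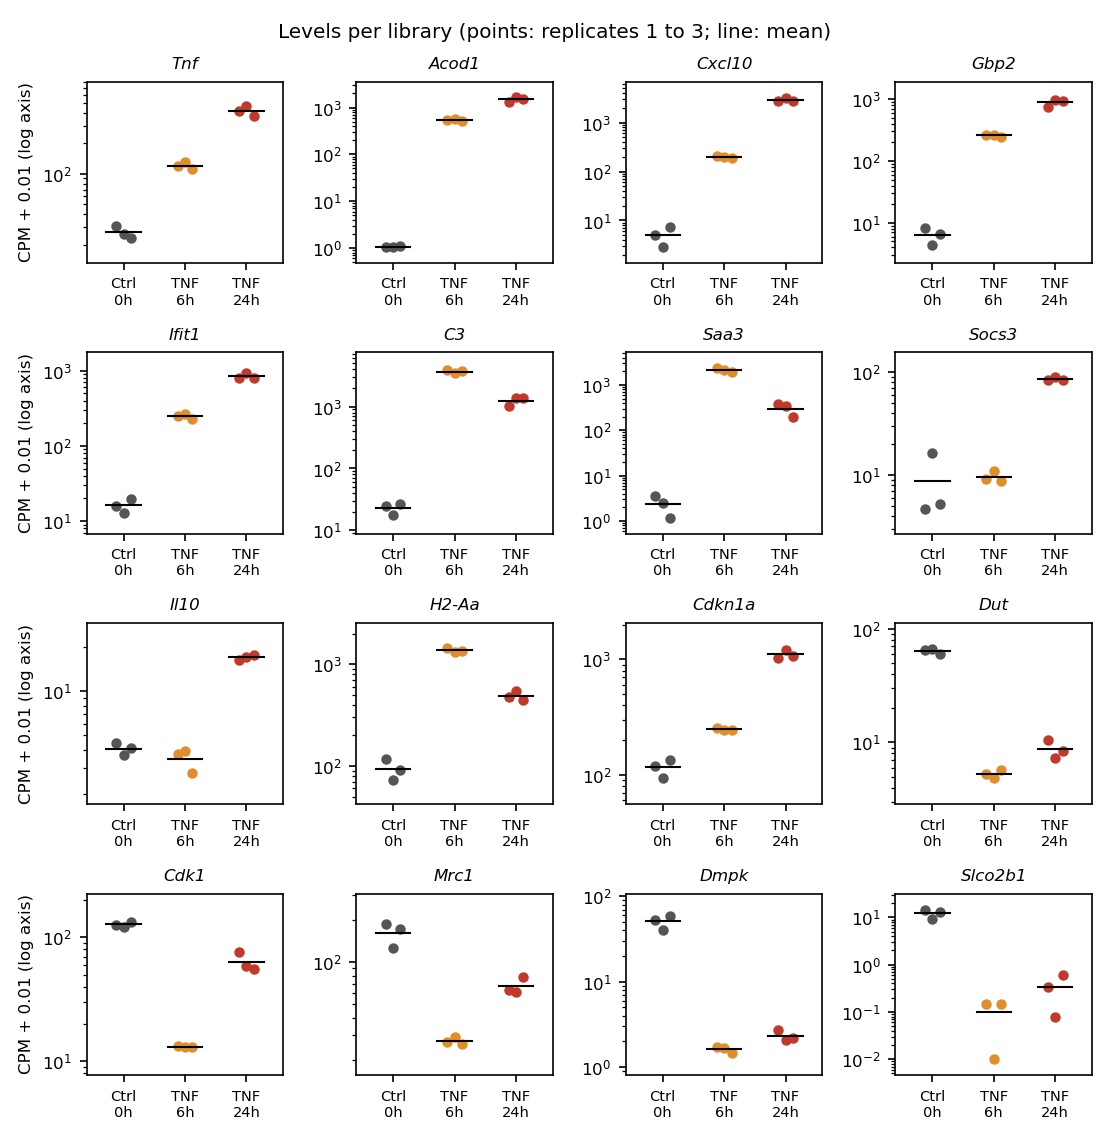
Level of 16 genes in each library of Ctrl_0h, TNF_6h and TNF_24h, as CPM plus 0.01 on a log axis that differs between panels. Points are replicates 1 to 3 from left to right and lines are means. Acod1, Cxcl10, Gbp2 and Cdkn1a step up from Ctrl_0h to TNF_6h to TNF_24h, C3, Saa3 and H2-Aa are highest at 6 h, Socs3 and Il10 are high at 24 h only, and Cdk1 and Mrc1 are lowest at 6 h.

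TNF itself and its signalling proteins were mostly higher after 24 h. Tnf (ENSMUSG00000024401, chr17:35199367-35202007), the gene for the cytokine that was added, had 30.7, 25.4 and 23.04 CPM in Ctrl_0h and 419, 469 and 371 CPM in TNF_24h, a log2 fold change of 3.99 ± 0.16 (edgeR adjusted p = 7.61e-13). It was still rising between the times, since TNF_24h was above TNF_6h by 1.80 ± 0.15 on the log2 scale (edgeR adjusted p = 7.79e-08). The TNF_24h and TNF_6h groups did not overlap. Of the receptors, Tnfrsf1a had 189, 155 and 196 CPM in Ctrl_0h and 345, 369.7 and 315 CPM in TNF_24h (log2 fold change 0.93 ± 0.13, edgeR adjusted p = 8.12e-06). Tnfrsf1b had 248, 181 and 237 CPM and 659, 749.7 and 772 CPM (log2 fold change 1.71 ± 0.12, edgeR adjusted p = 8.37e-10). Against 20.9% raised and 24.4% lowered over all genes tested, 20 of 26 genes for TNF receptors and signalling proteins were raised and 3 lowered. Their median log2 fold change was 1.01, against -0.09 over all genes tested. The largest rise was in Traf1, an adaptor of TNFR2, from 21.1, 19.7 and 23.5 CPM to 305, 297 and 246 CPM (log2 fold change 3.72 ± 0.13). Among the genes that limit cell death, Birc3, a ubiquitin ligase of the receptor complex, changed by 3.17 ± 0.15, and Cflar, an inhibitor of caspase 8, by 2.67 ± 0.18. Mlkl, the executor of necroptosis, was also raised, by 2.68 ± 0.22. The 3 lowered genes were the adaptors Tradd (-0.52) and Fadd (-0.48) and the necroptosis kinase Ripk3 (-0.46), and the 3 not called were Map3k14, Rbck1 and Ripk1. Without TNF_24h replicate 3, 1 gene of the list was lowered, and without Ctrl_0h replicate 2, 18 were raised, since Sharpin and Tab2 were no longer called.

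The NF-kB system was raised almost throughout. Of 18 genes for subunits and inhibitors 17 were raised, against 20.9% of all genes tested. Their median log2 fold change was 1.85, and Tnfaip8, at -0.20, did not pass the test. Without Ctrl_0h replicate 2 the number raised was 16, since Zc3h12a was not called (0.28, edgeR adjusted p = 0.121). Tnfaip3 (ENSMUSG00000019850, chr10:19000910-19015410) had 9.35, 5.41 and 8.03 CPM in Ctrl_0h and 113, 134 and 161 CPM in TNF_24h, a log2 fold change of 4.16 ± 0.17 (edgeR adjusted p = 7.61e-13). Nfkbia had 77.2, 52.3 and 73.02 CPM and 533, 571 and 510.0 CPM, a log2 fold change of 2.99 ± 0.13. The inhibitor gene Nfkbie, for IkB epsilon, had 29.7, 19.5 and 28.9 CPM and 310.0, 341 and 347 CPM (log2 fold change 3.68 ± 0.17). The groups did not overlap for any of these inhibitors, which for Tnfaip3 and Nfkbie was a condition of the rule for list members. Tnfaip2 and the gene for the RNA-binding protein Zc3h12c changed by 3.18 ± 0.16 and 2.98 ± 0.30. Against TNF_6h, 8 of the 18 were higher at 24 h, Tnfaip3 by 1.07 and Nfkbia by 0.68, and Zc3h12a was lower, by -0.38. In that comparison 12.7% of all genes tested were higher at 24 h and 10.9% lower, 23.6% in all. It shares the TNF_24h libraries with the comparison against untreated cells. TNF_6h against Ctrl_0h gave 6117 genes called (39.3%), 2928 raised (18.8%) and 3189 lowered (20.5%).

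Inflammatory cytokines, enzymes and surface molecules formed one of the most raised lists, with 25 of 28 genes raised and a median log2 fold change of 3.86. Over all genes tested 20.9% were raised. Nos2, which encodes inducible nitric oxide synthase, had 0, 0.947 and 0 CPM in Ctrl_0h and 33.5, 52.8 and 48.8 CPM in TNF_24h. All 28 of its control counts were in replicate 2. The log2 fold change was 7.25 ± 0.82 (edgeR adjusted p = 6.19e-07; 6.59 without control replicate 1), and without replicate 2 Nos2 was at least 1011-fold higher (floor of 3 counts, as above). Clec4e, the receptor Mincle for glycolipids, had 9.99, 7.27 and 8.29 CPM and 825, 930.2 and 877 CPM (log2 fold change 6.68 ± 0.33, edgeR adjusted p = 8.24e-12). The cytokine genes differed widely in level. Il1b had 0.534, 0.101 and 0.163 CPM in Ctrl_0h and 3.16, 3.29 and 2.52 CPM in TNF_24h (log2 fold change 3.41 ± 0.49, edgeR adjusted p = 1.35e-05, and 4.47 without control replicate 1). Il6 was detected in Ctrl_0h by 4 counts in replicate 2 alone and had 1.52, 2.14 and 2.09 CPM in TNF_24h. Without replicate 2 it was at least 43.1-fold higher, and its edgeR adjusted p was 0.00154 with that library and 4.19e-04 without. Il1b and Il6 were thus low in every TNF_24h library, and Tnf was far above them. Il10, which encodes an anti-inflammatory cytokine, had 4.41, 3.65 and 4.11 CPM in Ctrl_0h, 3.72, 3.91 and 2.78 CPM in TNF_6h and 16.4, 17.1 and 17.7 CPM in TNF_24h. Its log2 fold change was 2.07 ± 0.34 (edgeR adjusted p = 5.91e-05), and TNF_24h was above TNF_6h by 2.30 ± 0.34 (edgeR adjusted p = 6.15e-05). The 3 genes that were not called were Lcn2 (-1.66), Cd80 (0.09) and Il1a (2.67). Without Ctrl_0h replicate 2, 26 of the 28 were raised, Il1a being added (edgeR adjusted p = 0.0480), and Lcn2, still not called, changed sign to 1.31.

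Chemokine genes rose in 19 of 21 cases, against 20.9% of all genes tested, with a median log2 fold change of 2.82. Cxcl10 (ENSMUSG00000034855, chr5:92346638-92348889), a ligand of the T cell receptor CXCR3, had 4.997, 2.91 and 7.31 CPM in Ctrl_0h, 209.5, 196 and 190.4 CPM in TNF_6h and 2713, 3235 and 2728 CPM in TNF_24h. Its log2 fold change was 9.15 ± 0.71 against Ctrl_0h (edgeR adjusted p = 4.06e-09) and 3.86 ± 0.56 against TNF_6h (adjusted p = 4.13e-05). Cxcl9, another CXCR3 ligand, had 0.0534, 0.0676 and 0.0653 CPM in Ctrl_0h and 22.2, 34.98 and 24.7 CPM in TNF_24h (log2 fold change 8.72 ± 0.64, edgeR adjusted p = 1.66e-09). The third gene for a CXCR3 ligand, Cxcl11, which the RefSeq table types as a transcribed pseudogene, had no count in Ctrl_0h and 20.5, 25.7 and 20.96 CPM in TNF_24h, at least 725-fold higher. These genes lie side by side on chromosome 5 and were higher at 24 h than at 6 h. Ccl12, which attracts monocytes through CCR2, was at 0.187, 0.0676 and 0.392 CPM in Ctrl_0h and 58.4, 54.7 and 39.2 CPM in TNF_24h (log2 fold change 7.86 ± 0.76, and 8.54 without control replicate 3). Ccl5, which attracts T cells and monocytes, followed another course. It had 2.59, 1.45 and 1.73 CPM in Ctrl_0h, 1105, 932 and 824 CPM in TNF_6h and 388, 453 and 284 CPM in TNF_24h, so that it was raised by 7.59 ± 0.30 against Ctrl_0h and was lower than at 6 h by -1.35 ± 0.22 (edgeR adjusted p = 1.59e-04). Over the list 15 of 21 genes were higher at 24 h than at 6 h, and 2 were lower, Ccl5 and Cxcl14 (-0.81). The shares over all genes tested were 12.7% higher and 10.9% lower. Cxcl14 was also the only chemokine gene lowered against Ctrl_0h (-2.52), and Ccl17 was not called (1.74).

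Interferon-stimulated genes were raised without exception among those tested with all 3 control libraries. Over all genes tested 20.9% were raised. All 37 antiviral genes were raised, with a median log2 fold change of 3.54, and all 15 guanylate-binding proteins and immunity-related GTPases, with a median of 5.84. Without Ctrl_0h replicate 2 these counts were 36 of 37, as Ifitm3 was not called (edgeR adjusted p = 0.0779), and 15 of 15. Rsad2 (ENSMUSG00000020641, chr12:26442743-26456452), which encodes viperin, an enzyme that makes a chain-terminating nucleotide, had 11.2, 9.67 and 14.7 CPM in Ctrl_0h and 915, 1277 and 1273 CPM in TNF_24h (log2 fold change 6.61 ± 0.68, edgeR adjusted p = 1.99e-07). Its neighbour Cmpk2, a nucleotide kinase, had 19.6, 9.54 and 25.7 CPM and 836, 1219.8 and 1348 CPM (log2 fold change 5.96 ± 0.59). Ifit1 (ENSMUSG00000034459, chr19:34640889-34650009), which binds viral RNA ends, had 16.1, 12.7 and 19.8 CPM in Ctrl_0h, 249, 269 and 231 CPM in TNF_6h and 807, 945 and 793 CPM in TNF_24h (log2 fold change 5.71 ± 0.68, edgeR adjusted p = 1.23e-06). Ifit2, of the same family, changed by 6.29 ± 0.81. Each of these genes was higher in all 3 TNF_24h libraries than in any control, as the rule that named them required. By the edgeR test 13 of the 37 were higher at 24 h than at 6 h. Over all genes tested 12.7% were higher and 10.9% lower. Rsad2 stood 2.49 ± 0.56 above its 6 h level (adjusted p = 0.00272), and Bst2, which encodes tetherin, was the 1 gene that was lower (-1.18). The gene of interferon beta, Ifnb1, was at or near 0 in Ctrl_0h, with 0, 0.0676 and 0 CPM. It was low in TNF_24h, with 1.22, 1.44 and 0.298 CPM, each above every control.

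Gbp2 (ENSMUSG00000028270, chr3:142620663-142638008), a GTPase that coats intracellular pathogens, had 8.18, 4.43 and 6.53 CPM in Ctrl_0h, 263, 267 and 244 CPM in TNF_6h and 749, 979 and 923 CPM in TNF_24h. The log2 fold change was 7.11 ± 0.23 against Ctrl_0h (edgeR adjusted p = 6.36e-14) and 1.78 ± 0.18 against TNF_6h (adjusted p = 1.05e-06). Gbp6 had 0, 0.135 and 0.326 CPM in Ctrl_0h and 15.99, 16.9 and 14.7 CPM in TNF_24h (log2 fold change 6.73 ± 0.74, from 6.08 without control replicate 1 to 7.97 without replicate 3). It had 16.8, 16.3 and 14.5 CPM in TNF_6h, and its log2 difference between 24 h and 6 h was 0.00 ± 0.50. Iigp1, an immunity-related GTPase, had 0.775, 0.811 and 1.01 CPM and 65.8, 99.2 and 87.7 CPM (log2 fold change 6.604 ± 0.75), and Gbp4 changed by 6.14 ± 0.67. Genes of both families are close copies of each other, so reads may be assigned to the wrong member.

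**Figure D4:**
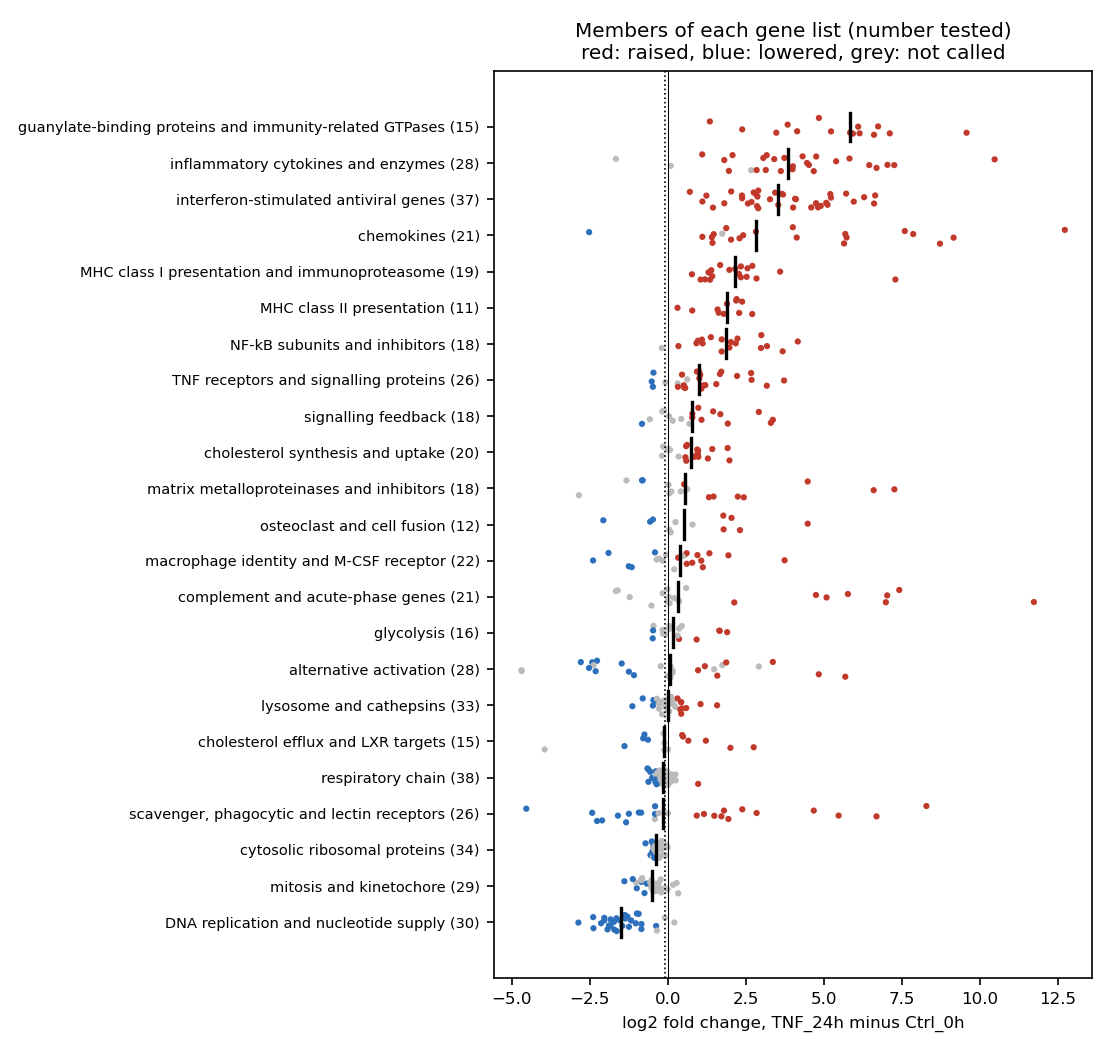
Log2 fold change of TNF_24h over Ctrl_0h for every tested member of 23 gene lists, ordered by the list median (black bar), with the number tested in brackets. Red points were raised, blue points lowered and grey points not called, and the dotted line is the median of all genes tested, -0.09. Lists of GTPases, inflammatory genes, antiviral genes and chemokines lie to the right, and DNA replication genes to the left.

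Antigen presentation genes were higher than in untreated cells and, for many, below their 6 h level. Over all genes tested 20.9% were raised against Ctrl_0h. Against TNF_6h, 10.9% of all genes tested were lower and 12.7% higher. All 11 genes of the MHC class II list were raised (median log2 fold change 1.89), and 9 of 11 without Ctrl_0h replicate 2, where H2-DMb2 and Ctss were not called. H2-Aa, the alpha chain of I-A, had 117, 73.1 and 92.1 CPM in Ctrl_0h, 1461, 1313 and 1339 CPM in TNF_6h and 479, 544 and 446 CPM in TNF_24h. It was raised by 2.38 ± 0.16 against Ctrl_0h (edgeR adjusted p = 4.32e-10) and was lower than at 6 h by -1.49 ± 0.15 (adjusted p = 1.10e-06). H2-Ab1, the beta chain, changed by 2.70 ± 0.26 against Ctrl_0h and -1.01 ± 0.24 against TNF_6h, and H2-Eb1, the beta chain of I-E, by 2.28 ± 0.21 and -1.66 ± 0.21. Over the list 6 of 11 genes were lower at 24 h than at 6 h and 1, H2-Ob, was higher (2.25). H2-DMa, which helps to load peptides, stood at 50.6, 33.8 and 41.6 CPM in Ctrl_0h and 161, 171 and 137 CPM in TNF_24h (log2 fold change 1.89 ± 0.22).

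All 19 genes of the MHC class I list were raised (median log2 fold change 2.16), 8 were lower at 24 h than at 6 h, and 2, Tap2 (0.76) and Nlrc5, were higher. The shares over all genes tested were 20.9% raised, 10.9% lower than at 6 h and 12.7% higher. Nlrc5, the transactivator of class I genes, had 20.98, 17.99 and 21.8 CPM in Ctrl_0h and 178, 248 and 309 CPM in TNF_24h (log2 fold change 3.60 ± 0.21, edgeR adjusted p = 1.06e-10), and was 1.31 ± 0.20 above its 6 h level. Tap1, a subunit of the peptide transporter, had 115, 85.1 and 122 CPM and 766, 825 and 718 CPM (log2 fold change 2.84 ± 0.25). The non-classical gene H2-M2 ran the other way in time. It had 0.748, 0.203 and 0.359 CPM in Ctrl_0h, 268, 291 and 299.5 CPM in TNF_6h and 57.2, 78.96 and 78.4 CPM in TNF_24h (log2 fold change 7.29 ± 0.33 against Ctrl_0h, 7.98 without control replicate 1, and -2.00 ± 0.23 against TNF_6h). H2-Q7, at 2.71 against Ctrl_0h, is nearly identical to other Q-region genes and its value is uncertain for that reason.

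Against 20.9% raised and 24.4% lowered over all genes tested, 8 of 21 complement and acute-phase genes were raised and none lowered. The list split into a few large rises and many genes that were not called, with a median log2 fold change of 0.31. The median was 1.09 without Ctrl_0h replicate 2, with the same counts, and without control replicate 1 there was 1 lowered gene. C3 (ENSMUSG00000024164, chr17:57203967-57228136), the central complement component, had 24.99, 17.5 and 26.2 CPM in Ctrl_0h, 3825, 3488 and 3698 CPM in TNF_6h and 1014, 1352 and 1378 CPM in TNF_24h. Its log2 fold change was 5.77 ± 0.20 (edgeR adjusted p = 1.68e-13), and TNF_24h was below TNF_6h by -1.56 ± 0.17 (adjusted p = 2.00e-06). Saa3, serum amyloid A3, had 3.50, 2.40 and 1.14 CPM in Ctrl_0h, 2393, 2166 and 1958 CPM in TNF_6h and 375, 335 and 192 CPM in TNF_24h, with log2 fold changes of 6.98 ± 0.35 against Ctrl_0h (edgeR adjusted p = 9.96e-12) and -2.85 ± 0.28 against TNF_6h (adjusted p = 5.75e-07). For both genes every TNF_24h library lay below every TNF_6h library and above every control. The genes of the first component, C1qa (0.31), C1qb (0.20) and C1qc (-0.01), were not called.

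**Figure D5:**
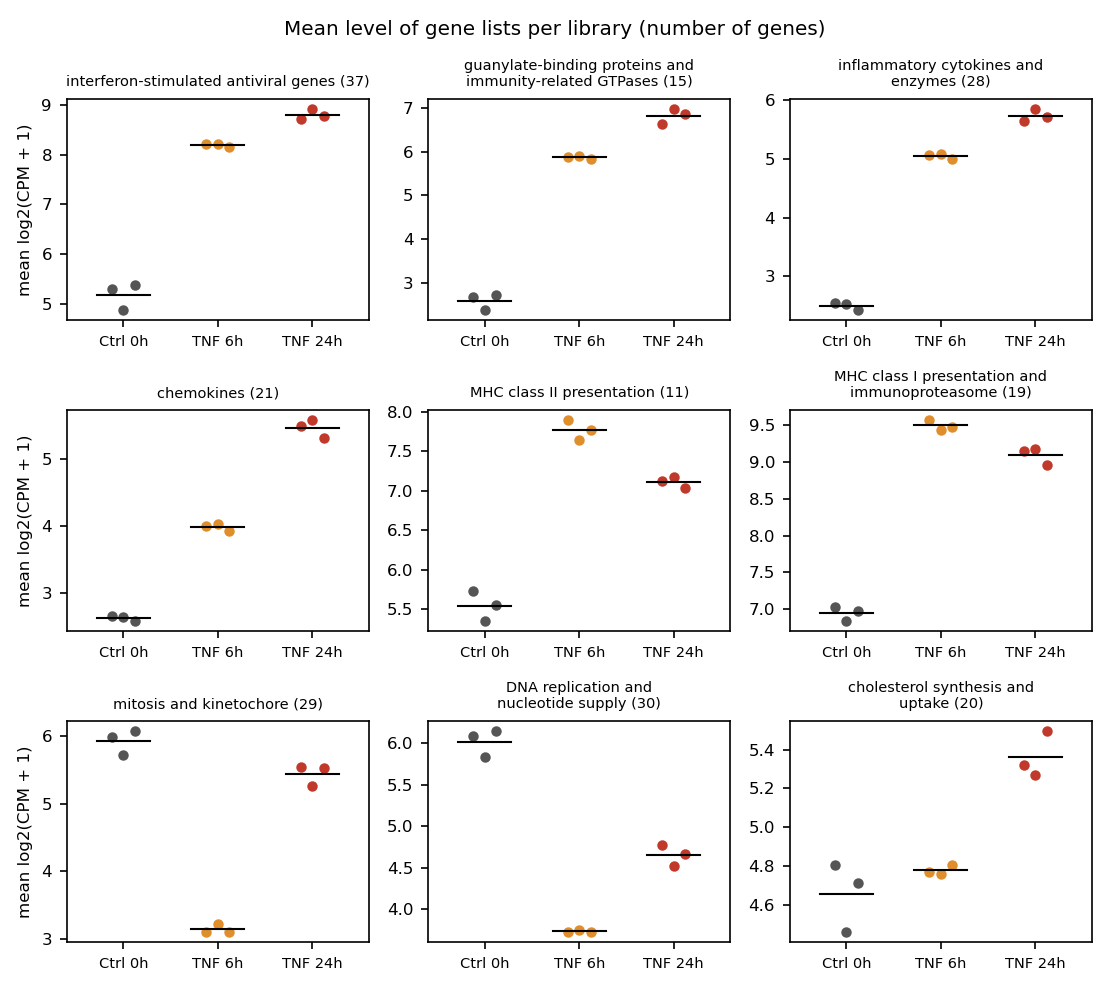
Mean of log2(CPM + 1) over the tested members of 9 gene lists in each library of Ctrl_0h, TNF_6h and TNF_24h, with the number of genes in brackets. Points are replicates 1 to 3 and lines are group means. Chemokine, GTPase and cholesterol genes are highest at 24 h, MHC genes are highest at 6 h, and the mitosis list falls from 5.71 to 6.07 in Ctrl_0h to 3.10 to 3.22 in TNF_6h and stands at 5.26 to 5.54 in TNF_24h.

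Among feedback regulators, the cytokine signalling suppressors Socs1 and Socs3 were higher at 24 h than at 6 h. Socs3 (ENSMUSG00000053113, chr11:117966079-117970336), an inhibitor of signalling through the gp130 receptor, had 4.70, 16.5 and 5.25 CPM in Ctrl_0h, 9.08, 11.04 and 8.77 CPM in TNF_6h and 83.6, 90.3 and 85.3 CPM in TNF_24h. Control replicate 2 was the highest control and lay above the 3 TNF_6h libraries. The log2 fold change was 3.30 ± 0.35 with it (edgeR adjusted p = 2.32e-07) and 4.12 without it, and TNF_24h was above TNF_6h by 3.16 ± 0.34 (adjusted p = 1.98e-06). Socs1, which inhibits JAK kinases of the interferon receptors, was likewise highest at 24 h, with 4.81, 17.3 and 5.78 CPM in Ctrl_0h, 19.5, 15.96 and 11.8 CPM in TNF_6h and 98.4, 99.4 and 87.3 CPM in TNF_24h (log2 fold change 3.36 ± 0.37, and 4.17 without replicate 2). TNF_6h against Ctrl_0h gave 0.77 ± 0.35 for Socs1 (edgeR adjusted p = 0.0851) and 0.14 ± 0.33 for Socs3 (adjusted p = 0.778), neither called. Zfp36, which destabilises Tnf messenger RNA, had 109, 65.6 and 121 CPM in Ctrl_0h and 342, 398 and 377 CPM in TNF_24h (log2 fold change 1.92 ± 0.19), and Dusp2, a MAP kinase phosphatase, changed by 2.91 ± 0.20. Of 18 genes in the list 10 were raised (13 without replicate 2, with Socs2, Cish and Dusp5 added) and 1, Spry2, was lowered (-0.83), with a median of 0.78. The shares over all genes tested were 20.9% raised and 24.4% lowered.

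The genes lowered most after 24 h of TNF included kinase, transporter and DNA repair genes. Dmpk (ENSMUSG00000030409, chr7:19083646-19093821), the kinase gene of myotonic dystrophy, had 53.2, 40.3 and 59.5 CPM in Ctrl_0h, 1.71, 1.64 and 1.44 CPM in TNF_6h and 2.71, 2.07 and 2.15 CPM in TNF_24h. Its log2 fold change was -4.46 ± 0.25 (edgeR adjusted p = 4.70e-11). The next gene on the chromosome, Dmwd (ENSMUSG00000030410, chr7:19076112-19082778), had 28.4, 30.2 and 26.1 CPM in Ctrl_0h and 2.49, 2.10 and 1.82 CPM in TNF_24h (log2 fold change -3.72 ± 0.33, edgeR adjusted p = 2.77e-08). Slco2b1, an organic anion transporter, had 14.6, 9.16 and 13.1 CPM in Ctrl_0h and 0.334, 0.0700 and 0.596 CPM in TNF_24h (log2 fold change -5.18 ± 0.72, edgeR adjusted p = 8.82e-06, and -5.86 without TNF_24h replicate 3). Between 6 h and 24 h, Dmpk (log2 difference 0.53 ± 0.26, edgeR adjusted p = 0.149) and Slco2b1 (1.90 ± 0.92, adjusted p = 0.154) were not called, and Dmwd was lower at 24 h by -1.34 ± 0.32 (adjusted p = 0.00428). Il16, whose product attracts CD4+ cells, had 29.2, 29.3 and 29.1 CPM in Ctrl_0h, 7.04, 6.12 and 6.67 CPM in TNF_6h and 3.13, 1.33 and 1.42 CPM in TNF_24h, lower by -3.89 ± 0.30 against Ctrl_0h (edgeR adjusted p = 4.24e-09) and by -1.74 ± 0.29 against TNF_6h (adjusted p = 1.78e-04). The fall of Tmem37, which encodes a membrane protein, also went on between the times, from 48.7, 54.98 and 45.3 CPM in Ctrl_0h to 16.5, 11.8 and 11.1 CPM in TNF_6h and 3.86, 2.45 and 2.68 CPM in TNF_24h (log2 fold change -4.04 ± 0.19). Rnf150, of the RING finger family, had 32.5, 24.2 and 29.8 CPM, 6.601, 5.76 and 6.09 CPM and 1.61, 0.595 and 1.72 CPM in the same order (log2 fold change -4.45 ± 0.27).

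Ung, the uracil-DNA glycosylase of base excision repair, had 18.97, 20.6 and 21.01 CPM in Ctrl_0h and 1.15, 1.09 and 1.22 CPM in TNF_24h (log2 fold change -4.12 ± 0.30, edgeR adjusted p = 1.74e-09). Eps8, which regulates actin, changed by -4.43 ± 0.27, Nanos1, an RNA-binding protein gene, by -4.28 ± 0.43, and Acot1, an acyl-CoA thioesterase gene, by -3.79 ± 0.27. Shisa9 changed by -3.88 ± 0.28 and Misp3 by -4.40 ± 0.57 (-5.35 without TNF_24h replicate 1). Control replicate 2 moved the size of the change in another pair of genes. Sox12, a transcription factor gene, had 1.92, 42.3 and 1.34 CPM in Ctrl_0h and 0.122, 0 and 0.0662 CPM in TNF_24h, with a log2 fold change of -7.79 with that library and -4.59 without it. Nat8l, the gene for N-acetylaspartate synthase, had 3.18, 31.6 and 3.56 CPM and 0, 0.175 and 0.464 CPM, with -5.91 and -3.99. Sox12 gave -8.65 without TNF_24h replicate 1, and Nat8l gave -5.28 without TNF_24h replicate 1 and -7.20 without its replicate 3. Both were still called without control replicate 2 (edgeR adjusted p = 2.79e-04 and 1.32e-05), which was a condition of the rule that named them.

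Proliferation genes were examined in a pair of lists. Of 30 genes of DNA replication and nucleotide supply 27 were lowered, with a median log2 fold change of -1.495, against 24.4% lowered and a median of -0.09 over all genes tested. Of 29 genes of mitosis and the kinetochore 6 were lowered, with a median of -0.51. That share was near that of all genes in the fit of all 21 libraries, and fits of fewer libraries gave other counts. The difference between the lists was not tested. Dut, which keeps uracil out of DNA, had 64.8, 65.8 and 60.2 CPM in Ctrl_0h, 5.26, 4.86 and 5.71 CPM in TNF_6h and 10.4, 7.28 and 8.44 CPM in TNF_24h (log2 fold change -2.87 ± 0.17, edgeR adjusted p = 1.35e-10). Lig1, the ligase that joins Okazaki fragments, had 242, 229 and 252 CPM in Ctrl_0h and 52.9, 43.8 and 40.95 CPM in TNF_24h (log2 fold change -2.39 ± 0.25). Mcm7, of the replicative helicase, had 209, 163 and 211 CPM and 49.1, 40.5 and 42.6 CPM (log2 fold change -2.14 ± 0.32), and Cdc6, which loads the helicase, changed by -2.38 ± 0.53. These genes were below every control library in each TNF_24h library, as the rule that named them required. Fen1 (-0.35), Rfc3 (-0.10) and Mcm10 (0.21) were not called. Without Ctrl_0h replicate 2, Fen1 was lowered as well (-0.69, edgeR adjusted p = 0.0482), which made 28 of 30.

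In the mitosis list, Cdk1, the kinase that starts mitosis, had 127, 121 and 133 CPM in Ctrl_0h, 13.2, 13.1 and 13.2 CPM in TNF_6h and 76.4, 58.6 and 55.98 CPM in TNF_24h. It was lower than in Ctrl_0h by -0.997 ± 0.31 (edgeR adjusted p = 0.0143) and higher than in TNF_6h by 2.27 ± 0.33 (adjusted p = 4.34e-05). Ska1, of the kinetochore, went from 13.2, 15.2 and 15.9 CPM to 0.670, 0.925 and 1.17 CPM and 6.63, 5.01 and 5.23 CPM (log2 fold change -1.39 ± 0.46 against Ctrl_0h and 2.61 ± 0.51 against TNF_6h). Spc25, of the NDC80 complex, differed by -0.75 ± 0.29 and 2.75 ± 0.32, and Bub1b, of the spindle checkpoint, by -0.85 ± 0.30 and 1.67 ± 0.31. All 29 mitosis genes were higher at 24 h than at 6 h, as were 20 of 30 replication genes, while Cdt1, the licensing factor gene, was lower (-0.74). The shares over all genes tested were 12.7% higher and 10.9% lower. In a fit of the 2 groups alone, 18 mitosis genes were lowered against Ctrl_0h, while the lowered count over all genes went from 3796 to 2695. The number of mitosis genes lowered was 0, 1, 2, 5 and 2 without TNF_24h replicate 2, TNF_24h replicate 3 and Ctrl_0h replicates 1, 2 and 3. Leaving out a single library ended the calls of Cdk1 and Ska1 (TNF_24h replicate 2 or 3), of Bub1b (TNF_24h replicate 1 or 2, or Ctrl_0h replicate 1 or 3) and of Spc25 (TNF_24h replicate 2 or 3, or Ctrl_0h replicate 1 or 3), with adjusted p from 0.0516 to 0.186. Cdkn1a, which encodes the cyclin-dependent kinase inhibitor p21, had 119.6, 94.6 and 135 CPM in Ctrl_0h, 256, 246 and 245 CPM in TNF_6h and 1034, 1213 and 1079 CPM in TNF_24h (log2 fold change 3.25 ± 0.15, edgeR adjusted p = 3.69e-12). In bulk samples fewer cells that express a gene and less of its RNA per cell cannot be told apart.

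Among metabolic genes, cholesterol synthesis and uptake was the list most often raised, with 14 of 20 genes raised, none lowered and a median log2 fold change of 0.73. Idi1, which isomerises isopentenyl diphosphate, had 30.9, 26.002 and 34.8 CPM in Ctrl_0h, 19.5, 23.8 and 25.2 CPM in TNF_6h and 55.6, 62.4 and 60.2 CPM in TNF_24h. Of the 20 genes 12 were higher at 24 h than at 6 h, against 12.7% of all genes tested. Without Ctrl_0h replicate 2, Dhcr7 was lowered (-0.38). Cholesterol efflux and LXR targets moved both ways, with 6 of 15 raised and 4 lowered (2 without TNF_24h replicate 3). Leaving out Ctrl_0h replicate 2 gave 5 and 3, as Nr1h2 and Apoe were not called. Of all genes tested 20.9% were raised and 24.4% lowered. The sterol exporter gene Abca1 had 41.9, 30.2 and 40.6 CPM in Ctrl_0h and 118, 136 and 198 CPM in TNF_24h (log2 fold change 2.00 ± 0.17), and Nr1h3, which encodes LXR alpha, had 41.7, 39.8 and 37.4 CPM and 280.0, 283 and 236 CPM (log2 fold change 2.75 ± 0.24). The lipoprotein gene Apoe had 11281, 11949 and 10537 CPM and 8107, 7161 and 4791 CPM, a log2 fold change of -0.75 ± 0.26 (edgeR adjusted p = 0.0266). That call was lost without Ctrl_0h replicate 1 or 2 or TNF_24h replicate 2 or 3 (adjusted p from 0.0537 to 0.141).

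Energy metabolism genes had medians near that of all genes. Of 16 glycolysis genes 5 were raised and 2 lowered (median 0.18), against 20.9% and 24.4% of all genes tested. The raised ones were the glucose transporter Slc2a1 (1.90 ± 0.16), the hexokinases Hk2 (1.66 ± 0.17) and Hk1 (0.36), and the phosphofructokinase genes Pfkfb3 (1.65 ± 0.18) and Pfkp (0.92 ± 0.11). Hk1 was not called without control replicate 2 (0.28, edgeR adjusted p = 0.131). The lowered ones were Tpi1 (-0.49) and Pkm (-0.47), of which neither was called without control replicate 3 or TNF_24h replicate 3, and 1 without TNF_24h replicate 2. Of 38 respiratory chain genes 1, the cytochrome c gene Cycs, was raised (0.97 ± 0.12) and 9 were lowered (median -0.14). Without control replicate 2 the number lowered was 3, Ndufa8, Ndufb10 and Atp5c1, and it was 5 without control replicate 1 or TNF_24h replicate 2 and 1 without TNF_24h replicate 3. Cytosolic ribosomal protein genes gave 10 of 34 lowered (median -0.39), and 1, Rpl3, without control replicate 2. The number was 23 without TNF_24h replicate 1, 3 without its replicate 2, 1 without its replicate 3 and 6 without control replicate 1. These lowered shares, at 9 of 38 and 10 of 34, are read against 24.4% of all genes tested.

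Lysosome genes likewise went both ways, 9 of 33 raised and 5 lowered with a median of 0.02. Over all genes tested 20.9% were raised and 24.4% lowered. Without control replicate 2, 5 lysosome genes were raised and 8 lowered, against 18.6% and 19.0% of all genes. Without TNF_24h replicate 3 the lowered count was 3. Ctsc, the protease that activates granule serine proteases, had 148, 92.3 and 135 CPM in Ctrl_0h and 321, 401 and 396 CPM in TNF_24h (log2 fold change 1.58 ± 0.23). Ctsl, cathepsin L, had 1149, 994 and 1048 CPM and 532, 496 and 423 CPM (log2 fold change -1.14 ± 0.13), and the asparaginyl protease gene Lgmn changed by -0.81 ± 0.18.

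The defining macrophage receptors were higher in TNF_24h than in untreated cells. Csf1r, the receptor of M-CSF, had 2295, 1621 and 2235 CPM in Ctrl_0h and 3828, 4082 and 3955 CPM in TNF_24h (log2 fold change 0.95 ± 0.12, edgeR adjusted p = 3.55e-06). Adgre1, the gene of the F4/80 antigen, had 1124, 686 and 1118 CPM and 1288, 1572 and 1581 CPM (log2 fold change 0.60 ± 0.15, edgeR adjusted p = 0.00301). Control replicate 2 was the lowest of the controls for both genes, and without it the changes were 0.80 and 0.40. Adgre4, a relative of F4/80, rose from 2.78, 2.27 and 2.09 CPM to 25.9, 35.5 and 34.2 CPM (log2 fold change 3.74 ± 0.21). The transcription factor genes Cebpa and Id3 were lowered, Cebpa from 311, 175 and 329 CPM to 76.2, 69.6 and 72.1 CPM (log2 fold change -1.90 ± 0.29) and Id3 from 73.7, 65.2 and 63.3 CPM to 16.2, 13.6 and 8.54 CPM (log2 fold change -2.40 ± 0.19). Against 20.9% and 24.4% of all genes tested, 10 of the 22 genes in the list were raised and 5 lowered (median 0.40). Without control replicate 2 these were 9 and 6, since Lyz2 was not called and Cd68 was lowered (-0.44).

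Receptors for uptake moved in both directions, with 12 of 26 raised and 11 lowered, against 20.9% and 24.4% of all genes tested. The counts were equal without control replicate 2, but Tyro3 was then not called and Stab1 was lowered. Marco, a scavenger receptor for bacteria, had 1.28, 1.79 and 1.44 CPM in Ctrl_0h and 40.3, 45.5 and 28.9 CPM in TNF_24h (log2 fold change 4.67 ± 0.25, edgeR adjusted p = 2.24e-11). Axl, a receptor for dying cells, had 28.3, 17.5 and 28.5 CPM and 127, 181 and 226 CPM (log2 fold change 2.84 ± 0.19), and the inhibitory Fc receptor gene Fcgr2b changed by 2.38 ± 0.14. Mrc1, the mannose receptor gene, was lowered. It had 185, 125 and 173 CPM in Ctrl_0h, 26.9, 29.2 and 25.96 CPM in TNF_6h and 63.5, 61.3 and 78.3 CPM in TNF_24h, a log2 fold change of -1.25 ± 0.15 against Ctrl_0h (edgeR adjusted p = 1.67e-06) and of 1.31 ± 0.15 against TNF_6h (adjusted p = 4.89e-06).

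Against 20.9% raised and 24.4% lowered over all genes tested, markers of alternative activation gave 7 of 28 raised and 8 lowered (median 0.08). With control replicate 2 left out these were 9 and 7, since Cish and Fn1 were raised and Cdh1 was not called. Arg1, Retnla and Chil3, the usual marker genes of that state, were at or near 0 in all 6 libraries, with at most 0.270 CPM (Chil3 in control replicate 2), and none was called. The chemokine gene Ccl22 had 0.347, 1.18 and 0.392 CPM in Ctrl_0h, 1.54, 1.37 and 1.51 CPM in TNF_6h and 31.03, 32.1 and 33.5 CPM in TNF_24h (log2 fold change 5.68 ± 0.25, edgeR adjusted p = 1.74e-12, and 6.44 without control replicate 2). Ch25h, which makes 25-hydroxycholesterol, had 1.92, 2.50 and 2.15 CPM, 6.80, 7.13 and 6.09 CPM and 59.5, 75.8 and 52.2 CPM in the same order (log2 fold change 4.83 ± 0.25). Both were far higher at 24 h than at 6 h. Batf3, a transcription factor gene, fell from 10.2, 16.3 and 8.61 CPM in Ctrl_0h to 2.55, 1.75 and 0.728 CPM in TNF_24h (log2 fold change -2.79 ± 0.31).

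Matrix-degrading enzymes and osteoclast genes included some large rises, with 8 of 18 genes raised and 2 lowered, Adam8 (-0.83) and Timp2 (-0.81), in the first list. The number raised was 9 without control replicate 2, with Mmp25 added. Mmp14, a membrane-bound matrix metalloproteinase, had 2.004, 8.35 and 1.21 CPM in Ctrl_0h and 393, 379 and 333 CPM in TNF_24h (log2 fold change 6.59 ± 0.51, and 7.82 without control replicate 2). Mmp9 had 1.31, 4.36 and 1.34 CPM and 47.1, 54.3 and 52.8 CPM (log2 fold change 4.48 ± 0.40, and 5.28 without it). Adam17, which sheds TNF from the cell surface, had 160.1, 114 and 154 CPM and 587, 696 and 738 CPM (log2 fold change 2.24 ± 0.13, edgeR adjusted p = 1.05e-10). Of 12 osteoclast and cell fusion genes 5 were raised, Mmp9, Fos (2.31 ± 0.13), Dcstamp (2.04 ± 0.17), Mitf (1.78 ± 0.16) and Car2 (1.78), and 3 were lowered, Itgb3 (-2.07), Nfatc1 (-0.57) and Atp6v0d2 (-0.48). Ocstamp was raised too without Ctrl_0h replicate 2 (edgeR adjusted p = 0.0283). Both lists are read against 20.9% raised and 24.4% lowered over all genes tested.

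Markers of other cell types were low next to those of macrophages. Summed neutrophil markers were at 19.98 to 26.03 CPM in Ctrl_0h and 64.6 to 80.8 CPM in TNF_24h, nearly all from Csf3r, with 1 of 12 at 0 in Ctrl_0h and 5 in TNF_24h. Dendritic cell markers were at 446 to 480.0 CPM and 813 to 1214 CPM, nearly all from Bst2, which is also in the antiviral list, with none at 0. B cell markers were at 211 to 241 CPM and 184 to 209 CPM, with 3 of 10 at 0 in TNF_24h, and T and NK cell markers at 5.48 to 9.64 CPM and 9.07 to 12.1 CPM, with 10 of 14 at 0 in TNF_24h. Erythroid markers were at 15.5 to 26.1 CPM and 17.5 to 23.01 CPM, eosinophil, mast cell and basophil markers at 17.6 to 20.6 CPM and 10.2 to 10.5 CPM, and fibroblast markers at 1.496 to 9.06 CPM and 2.12 to 6.20 CPM. Their part in the results was not tested.

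TNF for 24 h was also examined on top of IL-4 and IL-13, in libraries shared with none of the above. IL_TNF_24h was set against IL_24h, which, unlike Ctrl_0h, was taken at 24 h as well. There 1731 genes were called (11.1%), 940 higher with TNF (6.03%) and 791 lower (5.08%). Of the 3258 genes raised by TNF alone, 677 were raised there too, which is 20.8% of the former and 72.0% of the latter, and 54 were lowered. Of the 3796 lowered genes, 511 were lowered there, 13.5% of the former and 64.6% of the latter, and 60 were raised. The antiviral list gave 34 of 37 raised, the GTPase list 14 of 15 and the class I list 16 of 19, while the mitosis list gave 13 of 29 lowered. For Rsad2, Cmpk2, Ifit1 and Ifit2 the standard deviation over the 3 IL_TNF_24h libraries exceeded the mean (200 against 141 CPM for Ifit2). Acod1 rose by 4.83 ± 0.21 on the log2 scale (edgeR adjusted p = 2.66e-11) and Mmp14 by 5.74 ± 0.50 (adjusted p = 1.19e-07). Tnf itself, at 0.19 ± 0.15, was not called there (adjusted p = 0.585), nor were Socs1 at 0.69 ± 0.33 (adjusted p = 0.238) and Il10 at -0.93 ± 0.41 (adjusted p = 0.185). Respiratory chain genes gave 15 of 38 raised there and none lowered. The effect of TNF alone was not tested against this one.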

How the data were processed

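RNA extracted with Trizol was sequenced. The values are the counts of reads per gene that the authors deposited, whole numbers for 47069 gene identifiers in 21 libraries, not normalized. The submitters' processing notes name the genome GRCm38 and the tools TopHat2 2.0.12, Subread 1.6.3 with featureCounts, and edgeR 3.28.1. Which annotation and strand setting were used, and how read pairs were counted, is not given in the sources used. The value 2 occurs 30373 times and the value 1 only 17808 times, so both mates of a fragment may have been counted, which makes counting intervals too narrow. Reads are not independent molecules, and intervals and floors hold for counting error alone. Without strand, reads of overlapping genes cannot be told apart.

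With R 4.3.3 and edgeR 4.0.16, genes passing filterByExpr by group (15581 of 32292 with a count, holding 99.9% of the counts) were scaled by TMM and fitted with 1 term per group over all 21 libraries. Contrasts used the quasi-likelihood F test with Benjamini-Hochberg adjustment over all genes tested, and the method was tested on simulated data. The common biological coefficient of variation was 22.8%. Alternatives were DESeq2 1.42.0 size factors and its Wald test, no filter, a filter of 1 CPM in 3 libraries, fits of fewer groups, the replicate number as a block, and each library left out in turn. Symbols and GRCm38.p6 positions came from NCBI tables, which gave 32832 identifiers a symbol.

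The comparison, gene lists, markers and rules were chosen with earlier results of these data known. Genes named are the 15 most raised and 15 most lowered whose higher group had a mean of 10 CPM or more, with no overlap between libraries and the same call without Ctrl_0h replicate 2, ranked by the smaller change of the 2 fits; up to 4 members of each list by the same rule; and Tnf, Tnfrsf1a, Tnfrsf1b, Nfkbia, Tnfaip3, Il1b, Il6, Il10, Nos2, Acod1, Saa3, C3, Socs1, Socs3, Mrc1, Arg1, Retnla, Chil3, Adgre1, Csf1r and Apoe. Predicted genes and pseudogenes were left out. Cdkn1a, Ifnb1, Cxcl11, Hk1, Car2, the C1q genes and those named as exceptions in a list or as marker genes were chosen after their values were seen. Values of 2 genes that this rule names are not reported here. Of 616 list genes 6 had no match (Hbb-bs, Hbb-bt, Hmgcs1, Ighd, Psmb9 and Siglecf). A planned search of promoters for binding motifs is not reported, since no source used here gives the letters of the motifs.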

Additional observations from a re-analysis of the deposited data

Results flagged for a closer look

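For 23 of the genes named, TNF_24h and TNF_6h differed by at least 2 on the log2 scale and passed the edgeR test of that difference (Benjamini-Hochberg adjusted). Longer TNF and longer culture cannot be told apart here. The value given is the log2 difference of TNF_24h minus TNF_6h, in which the shared untreated cells cancel. Cytokine and chemokine genes were higher at 24 h, Il6 by 6.28, Ccl22 by 4.45, Ccl12 by 4.03, Cxcl10 by 3.86, Cxcl9 by 3.10 and Il10 by 2.30. So were Serpina3f by 3.71 and Serpina3g by 2.71, the surface genes Cd69 by 3.63 and Vcam1 by 2.78, and the oxysterol enzyme gene Ch25h by 3.23. The signalling suppressors Socs3 and Socs1 were higher by 3.16 and 2.59. Of the antiviral genes, Rsad2 was higher by 2.49 and Cmpk2 by 2.23.

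The mitosis genes Spc25 (2.75), Ska1 (2.61) and Cdk1 (2.27) were higher at 24 h than at 6 h and below Ctrl_0h at both times. Saa3 (-2.85) and H2-M2 (-2.00) were lower at 24 h than at 6 h and above Ctrl_0h at both. Misp3 (-2.49), Rnf150 (-2.22) and Tmem37 (-2.12) were lower at 24 h than at 6 h and below Ctrl_0h at both.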

How the results depend on the processing

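The 7054 genes called became 7147 with DESeq2 size factors, 7645 with no filter, 6694 with the strict filter, 5458 in a fit of the 2 groups, 6463 in a fit of the 3 groups without IL, and 7536 with the DESeq2 Wald test. Leaving out 1 library gave 5702 to 7099 called, 2715 to 3293 raised and 2849 to 3911 lowered. TNF_24h against TNF_6h gave 2651 to 3429 called with 1 library left out (3675 with all), and IL_TNF_24h against IL_24h gave 1176 to 1522 (1731 with all). With the replicate number as a block, 6864 genes were called (3258 raised, 3606 lowered), and 3674 and 1752 in the other 2 comparisons. Same-numbered libraries of Ctrl_0h and TNF_24h had correlations of their deviations from the group means of -0.02, 0.08 and 0.12. For libraries with unlike numbers these ran from -0.09 to 0.05. Correlations this weak cannot tell whether the numbers pair the samples.

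Of the 116 genes named by the rule, 10 changed side of the threshold or direction in some alternative. Arg1, not called at 0.09, became -0.40 without Ctrl_0h replicate 2, -0.41 without Ctrl_0h replicate 3 and -0.23 without TNF_24h replicate 1 (3.82 without Ctrl_0h replicate 1). Spc25 was not called with the block (adjusted p = 0.0525). Ndufb10 and Ndufa8 were not called in a fit of the 2 groups, Ndufa8 not without TNF_24h replicate 3, and Rpl3 not without the filter. Chil3 was called as lowered without the filter, by DESeq2, and without Ctrl_0h replicate 1 or 3. Of 598 counts of list members under alternatives, 44 differed by over 1.5 times from those reported. The DESeq2 size factors moved the median of all genes by -0.01. Depth limits genes with few counts, such as Il6 and Ifnb1.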
